A study of Glycine max with 9 samples.

Results

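Soybean unifoliate leaves held at 4 °C for 24 h were compared with leaves taken at 0 h, before chilling, over 38979 genes of 49777 in the table. The 3 libraries of each group were paired by the replicate number in their titles, which used 6 of the 9 libraries of the series. A gene entered the comparison when its mean over these 6 libraries was at least 10 normalized counts. The remaining 10798 genes fell below that minimum, and 569 of them were listed at 0 in all 6 libraries. Genes just inside the minimum had a mean of 10 (59 genes) and genes just outside it a mean of 9.83 (62 genes).

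The plants were 2-week-old seedlings of Glycine max cultivar Williams82 PI518671, grown at 20 °C with 18 h of light and 6 h of darkness, neither inoculated with Rhizobium nor fertilized. The chilled group was moved to 4 °C at 4 h into the light period, kept the same light cycle and was harvested 24 h later. The unchilled group was harvested at the start of the treatment. Each library came from at least 6 plants, and all groups share the cultivar, the growth chamber conditions and the organ. Harvest thus fell on one and the same hour of the light cycle in both groups, but the chilled leaves were 1 day older. Unchilled leaves of the later age were not analysed here, so cold and a day of leaf development cannot be told apart.

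Soybean is a warm-season legume whose leaves are sensitive to chilling above freezing. In plants, the first hours of cold are known for a rapid induction of transcription factors. A longer stay at low temperature brings a slower acclimation, in which membrane lipids, soluble sugars, protective proteins and photosynthesis are adjusted. A leaf harvested after a full light and dark cycle in the cold falls in that later period. The gene identifiers in the table are of the Glyma form, with 1467 of the form Locus. None of them could be paired with a gene name, so no role is given for any gene below, and the leaf label could not be checked against marker genes.

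The library totals of the 6 libraries were 74.4 to 81.9 M normalized counts. The worth of 1 read, read from the spacing of low values, was 1.17 to 1.66 normalized counts in the 24 h libraries and 1.55 to 4.14 in the 0 h libraries. This gives an estimated depth of 47.8 to 67.7 M reads at 24 h and 18.0 to 52.2 M reads at 0 h, so the chilled libraries of replicates 1 and 2 were the deeper ones of their pairs. Over the log2 values of the 6 libraries, 90.3% of the sum of squares lay between replicate numbers, 4.28% between 24 h and 0 h, and 5.39% in the remainder. Replicate 3 stood apart from the others. At the median over tested genes it differed 1.88-fold from the mean of replicates 1 and 2, which differed 1.11-fold from each other. Every library of replicate 3 differed from every library of replicates 1 and 2 by 41.7 to 105 times counting noise (median squared difference over the 9 libraries, 1 h included), against 2.24 to 5.52 times for all other pairs of libraries. The labels do not say whether the replicates were separate cultures or sowings, so the p-values measure only the spread between these libraries.

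After 24 h in the cold, 1183 genes, or 3.03% of those tested, differed from 0 h when the libraries were compared within pairs (limma, adjusted p under 0.05). Of these, 707 genes rose (1.81%) and 476 fell (1.22%). In data simulated from this fit the share of false calls exceeded 0.05, so some more of these calls may be false than the threshold states. Fewer genes were changed in the simulation than were called here, and by larger steps, so its share gives no estimate for these calls. With every library scaled to the same total 1445 genes were called (3.71%), and the split turned to 639 genes higher and 806 lower. Quantile normalization kept more genes higher than lower (882 and 583), as did a repeated median-of-ratios scaling (725 and 482). The excess of rising genes thus held under these scalings but not with equal totals. Without the pairing 0 genes passed (limma, 351 with an unadjusted p below 0.05), and with the pairing but a plain moderation of the variance, without a trend or a robust prior, 0 passed as well (limma, 5623 with an unadjusted p below 0.05). With the trend but without the robust prior 702 passed. The 3 pairs leave 2 residual degrees of freedom for each gene. Without replicate 3, which stood apart, 3474 genes were called, while 203 were called without replicate 1 and 105 without replicate 2.

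The changes were small in most of the responding genes. The median change was 1.45-fold over the 1183 called genes and 1.13-fold over all genes tested, on the scale of log2(normalized counts + 1). The called genes that rose had a median of 1.43-fold and those that fell 1.49-fold. Below 1.5-fold lay 472 rising and 247 falling genes, and between 1.5-fold and 2-fold 182 rose and 176 fell. At 2-fold and more the directions were even, with 53 genes rising and 53 falling. Only 8 of the rising and 8 of the falling genes changed 4-fold or more. The 1170 tested genes with a mean change of at least 2-fold thus included 106 called ones.

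**Figure D1:**
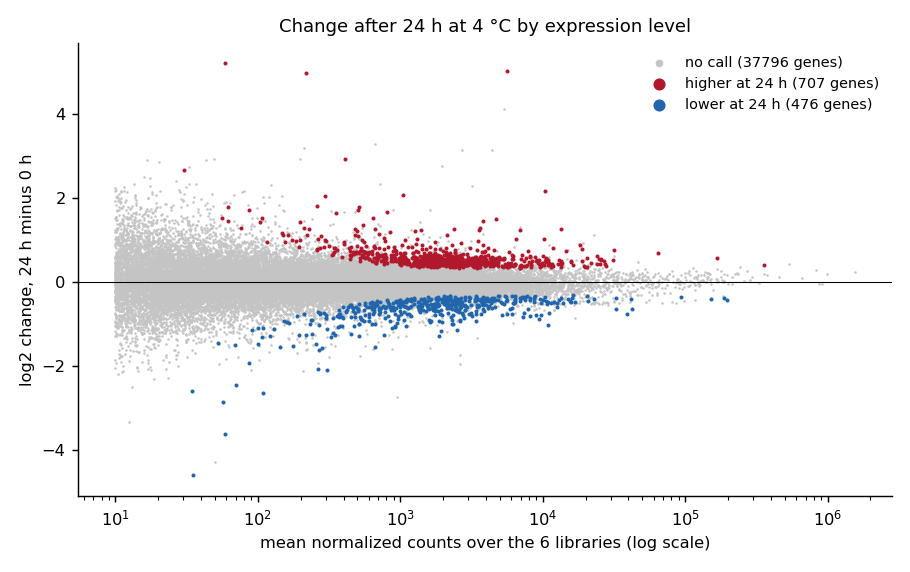
Each point is 1 of 38979 genes, with its mean over the 6 libraries on a log axis and its log2 change between 24 h and 0 h on the other axis. The 707 genes called higher and the 476 called lower lie among uncalled genes of similar or larger change. Uncalled genes spread most widely at low levels, but they also include 24 of the 47 genes averaging at least 1000 with a change of at least 2-fold.

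The share of called genes was higher at higher expression levels, and the changes called there were smaller. Among the 10464 genes with a mean of 10 to 100 normalized counts, 17 genes (0.162%) were called, and their median change was 3.42-fold. Among the 16706 genes with a mean of 100 to 1000, 294 (1.76%) were called with a median change of 1.65-fold. Among the 10855 genes with a mean of 1000 to 10000, 791 (7.29%) were called with a median change of 1.4-fold. Of the 954 genes above 10000, 81 (8.49%) were called, 49 of them higher and 32 lower, with a median change of 1.38-fold. The median standard error of the log2 change was 0.40 in the lowest of these classes and 0.14, 0.08 and 0.08 in the next ones. Over all tested genes the median change was 1.26-fold in the lowest class and 1.11-fold, 1.10-fold and 1.11-fold in the next ones. In every class it was smaller than the median called change. A change of the usual size was therefore hardly detectable in any class, and least so in genes with a mean under 100.

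The rising genes made up a larger part of the transcript pool at 24 h. The 707 genes called higher held 4.32%, 4.34% and 4.55% of the normalized counts in replicates 1, 2 and 3 at 24 h, against 2.94%, 3.15% and 3.32% at 0 h. The 476 genes called lower held 2.21%, 2.23% and 2.24% at 24 h, against 3.09%, 3.25% and 3.22% at 0 h. These genes were chosen on the same libraries, so the shares describe how much RNA the calls cover and are no further test. In both groups the called genes together held between 6.03% and 6.79% of a library.

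Genes are named from a pool of 268 genes that limma called, whose groups did not overlap and whose higher group averaged 1000 normalized counts or more, ranked by the smallest of their 3 pair changes. First in this pool was Glyma14g37440, which rose. It had 13323, 15459 and 4076 normalized counts at 24 h, against 291, 455 and 185 at 0 h (replicates 1, 2 and 3). Every chilled leaf library lay far above every unchilled one. Replicate 3 was the lowest library of each group. The log2 change was 5.02 ± 0.20 (moderated SE, n = 3 pairs, limma adjusted p = 0.0094), or 32.4-fold, with 5.51, 5.08 and 4.45 within pairs 1, 2 and 3. Its 1 h libraries had 3909, 5979 and 2043 normalized counts, between the 0 h and the 24 h value of its pair in all 3 replicate numbers. Without replicate 2 its adjusted p was 0.061 (limma), while its log2 change stayed at 4.98.

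Glyma02g14910 was next among the rising genes of the pool, with 5529, 6168 and 8809 normalized counts at 24 h, against 1607, 2154 and 3822 at 0 h in replicates 1, 2 and 3. The groups did not overlap, as the pool required, and replicate 3 was the highest library of each. The log2 change was 1.5 ± 0.11 (moderated SE, n = 3 pairs, limma adjusted p = 0.0094), and it was 1.78, 1.52 and 1.2 within pairs 1, 2 and 3. At 1 h it had 4084, 3819 and 6683 normalized counts.

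First by this rank among the falling genes of the pool was Glyma03g36080. It had 1323, 1557 and 1698 normalized counts at 24 h, against 2437, 2875 and 4064 at 0 h (replicates 1, 2 and 3). All chilled values lay below all unchilled ones, as the pool required of a falling gene. The log2 change was -1.01 ± 0.09 (moderated SE, n = 3 pairs, limma adjusted p = 0.010), and it was -0.88, -0.88 and -1.26 within pairs 1, 2 and 3. At 1 h it had 1395, 2623 and 2610 normalized counts, between the 24 h and the 0 h value in each of the 3 replicate numbers.

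Glyma10g31610 had 679, 555 and 933 normalized counts at 24 h, against 1494, 1259 and 1714 at 0 h (replicates 1, 2 and 3). The groups did not overlap, which was a condition of the pool. The log2 change was -1.06 ± 0.09 (moderated SE, n = 3 pairs, limma adjusted p = 0.010), with -1.14, -1.18 and -0.88 within pairs 1, 2 and 3. Its 1 h values of 512, 464 and 612 were below its 24 h values in all 3 replicate numbers, and this difference was not tested.

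**Figure D2:**
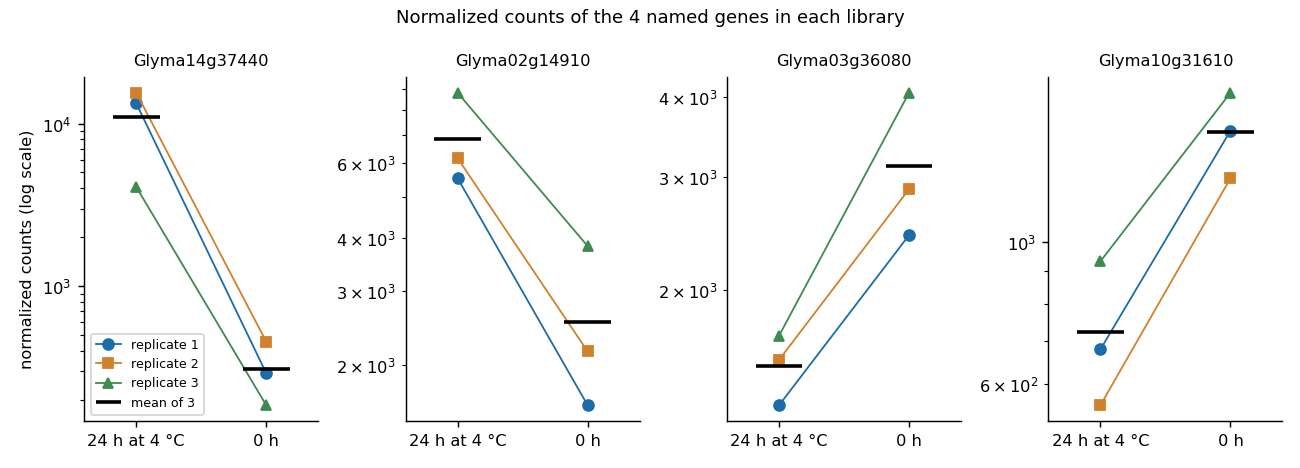
Normalized counts on log axes that differ between panels, for 2 genes that rose and 2 that fell, with 24 h at 4 °C to the left of 0 h. Points joined by a line are 1 replicate number, and black bars are means of 3. The 4 genes were chosen among genes whose groups do not overlap, as for Glyma14g37440 with 4076 or more at 24 h and 455 or less at 0 h.

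In the pool of 268 genes, 186 rose and 82 fell. Of the 186, 3 genes changed at least 2-fold in each pair, and of the 82, 0 did. A change of at least 1.5-fold in each pair was found in 21 of the rising and 16 of the falling genes. The third gene by rank had a smallest pair change of 1.07 on the log2 scale among those that rose and 0.87 among those that fell. The large values of Glyma14g37440 therefore stood well apart from the rest of the pool, which requires a call and no overlap. Over all tested genes averaging at least 1000, 3 rose at least 4-fold in all 3 pairs, and those other than Glyma14g37440 lay outside the pool.

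The 3 pairs agreed in direction for 15816 of the 38979 tested genes, or 40.6%, with 7276 genes higher and 8540 lower at 24 h in 3 of 3 pairs. In 21356 genes the pairs went different ways, and in 1807 genes at least 1 pair had no difference. Agreement followed expression level. It was 27.5% in genes with a mean of 10 to 100 normalized counts, 39.8% at 100 to 1000, 53.5% at 1000 to 10000 and 50.3% above 10000. Pairs with no common change would also agree in part of the genes, so these shares are no count of responding genes. All 1183 called genes moved the same way in 3 of 3 pairs, which the paired test itself favours.

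A change of at least 2-fold in all 3 pairs was rare. It was found in 81 genes that were higher at 24 h (0.208% of those tested) and in 73 that were lower (0.187%). Of these, 29 and 25 were called. At least 4-fold in all 3 pairs were 6 higher genes, 3 of them called, and 7 lower ones, 5 of them called (limma), and Glyma14g37440 was the only one of these in the pool from which genes are named. Low genes predominated, since 49 of the 81 and 54 of the 73 had a mean under 100. In comparison, 6826 genes changed at least 2-fold in at least 1 pair, and 70.2% of these did so in 1 pair alone. In 816 genes, 2 pairs changed at least 2-fold in opposite directions.

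Across genes, which are not independent replicates, the change in 1 pair was only loosely related to the change in another. Over all tested genes Pearson's r was 0.22 between pairs 1 and 2, 0.14 between pairs 1 and 3 and 0.13 between pairs 2 and 3. Over the 11809 genes averaging at least 1000 normalized counts it was 0.48, 0.19 and 0.42, and Spearman's rho was 0.71, 0.40 and 0.39. Without the genes whose identifiers begin with Glyma13g11 or Glyma13g12, r was 0.54, 0.34 and 0.44 over the remaining 11740. The pairs share no library with each other. Pairs 1 and 2 moved the same way in 77.7% of these abundant genes, pairs 1 and 3 in 64.9% and pairs 2 and 3 in 63.6%.

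**Figure D3:**
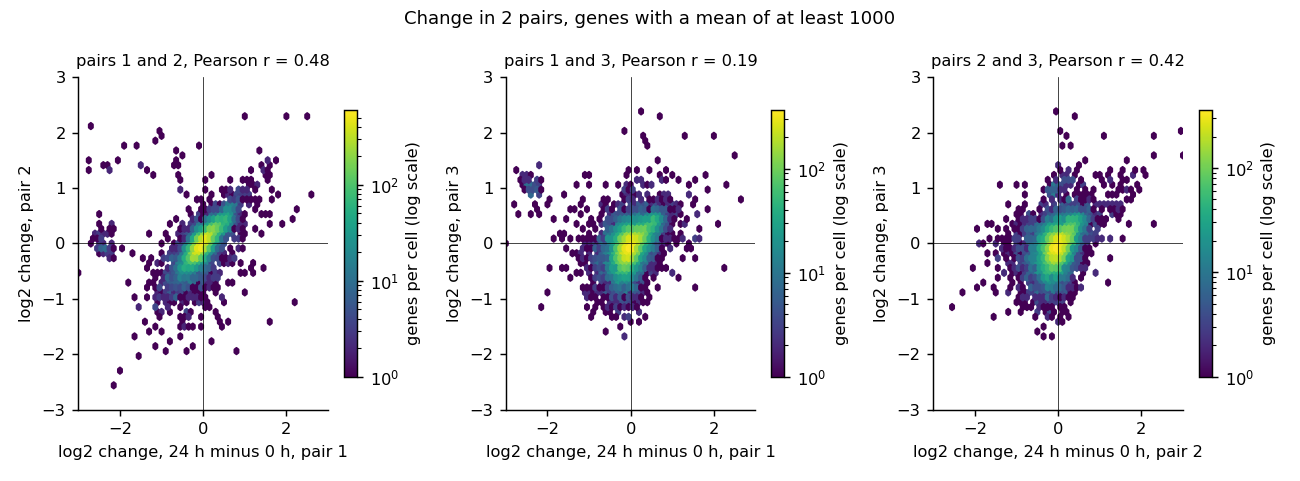
Each panel sets the log2 change of 1 pair against that of another for the 11809 genes averaging 1000 or more, with colour for the number of genes on a log scale; 28 genes with a change beyond 3 on the log2 scale in any pair can lie outside the axes. The main cloud runs along the diagonal most clearly for pairs 1 and 2, and a small separate cloud lies at about -2.4 in pair 1.

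Genes called from 2 pairs could be read in the pair that took no part in the call. Of 203 genes called from pairs 2 and 3 (0.521% of those tested), 171 moved the same way in pair 1, or 84.2%, while 64.4% of all tested genes moved in pair 1 as in the mean of the others. Of 105 genes called from pairs 1 and 3 (0.269%), 103 moved the same way in pair 2, or 98.1%, against 63.2% of all tested genes. Of 3474 genes called from pairs 1 and 2 (8.91%), 2786 moved the same way in pair 3, or 80.2%, against 58.9%. Most called genes were abundant, and agreement was higher at high levels. Among genes averaging at least 1000, 84.0% of 131 called genes moved the same way in pair 1, against 74.5% of all tested at that level. For pair 2 it was 98.6% of 72, against 72.9%, and for pair 3 80.9% of 2568, against 65.1%. These are counts with no test.

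The exceptions were uneven. All 88 genes called lower from pairs 2 and 3 were lower in pair 1 as well, but 32 of the 115 called higher were not. In those 115 genes the change in pair 1 ran from -3.40 at the lowest 5% to 4.49 at the highest 5% on the log2 scale. The size of the change was also smaller in a left-out pair than in the pairs that made the call, which choosing the genes on those pairs itself favours. Genes called without pair 3 had a median change of 0.44 in the pairs used and of 0.25 in pair 3, in the direction of the call. Without pair 1 the medians were 1.00 and 0.73, and without pair 2 they were 0.95 and 0.87.

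**Figure D4:**
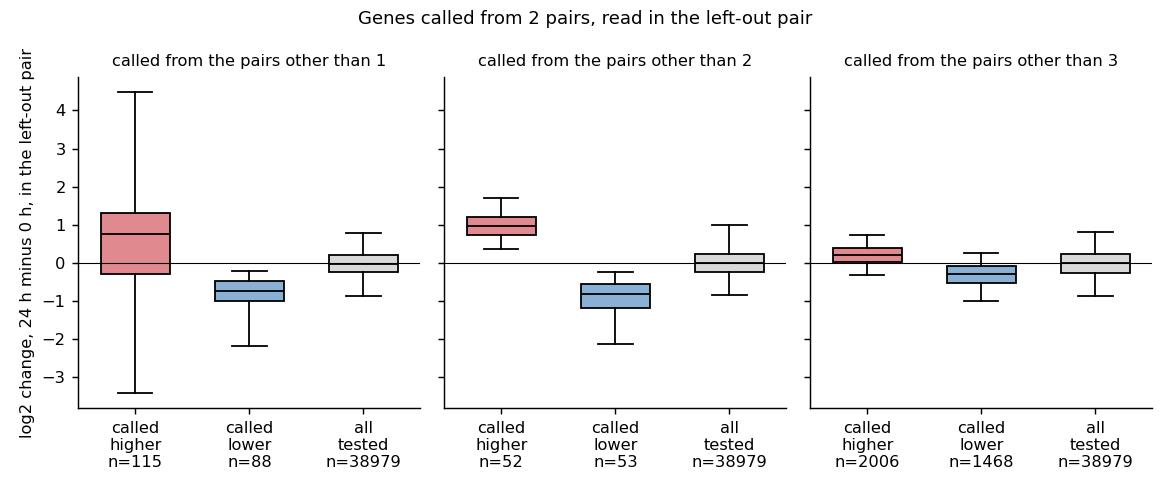
Box plots of the log2 change in the left-out pair, with boxes for the quartiles and whiskers from 5% to 95%, for genes called higher, called lower and all tested. The boxes of called genes lie on their own side of 0 except for the 115 genes called higher from pairs 2 and 3, whose lower quartile in pair 1 is -0.28.

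The distance of replicate 3 from the others was larger than the change in the cold at the median gene. It was 1.88-fold over all tested genes and 1.74-fold over the called ones, against changes of 1.13-fold and 1.45-fold. Replicates 1 and 2 differed from each other by 1.11-fold and 1.09-fold. The number-to-number range of the pair means, replicate 3 included, was 2.06-fold at the median over all tested genes and 1.89-fold over the called ones. It exceeded the cold change in 92.1% of tested genes and in 69.1% of called genes. In 826 of the 1183 called genes, or 69.8%, the 24 h and 0 h values overlapped between replicates although each pair moved the same way. The remaining 357 did not overlap, compared with 2032 of all tested genes (5.21%).

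Not all abundant genes with large changes were called. Of the 47 genes averaging at least 1000 normalized counts and a mean change of at least 2-fold, 31 were higher and 16 lower at 24 h, and 23 were called, 16 higher and 7 lower. Among the 24 that were not called, 20 still moved the same way in 3 of 3 pairs. Their median standard error was 0.49 on the log2 scale, against 0.11 in the 23 called genes. In 19 of the 24 uncalled genes and 9 of the 23 called ones, replicate 3 differed at least 4-fold from the mean of replicates 1 and 2, as did 15.9% of all genes at that level. The part of that difference in the missing calls was not tested.

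A block of genes with neighbouring identifiers moved in opposite directions in different pairs. It was chosen after its values were seen and consists of the 131 tested genes whose identifiers begin with Glyma13g11 or Glyma13g12. Of these, 108 were lower at 24 h in pair 1 and higher in pair 3. The median log2 change of the block was -2.13 in pair 1, -0.03 in pair 2 and 0.92 in pair 3. Limma called 0 of the 131 genes, 3 of which had an unadjusted p below 0.05. Over all 38979 tested genes 3.03% were called, and 7407 had an unadjusted p below 0.05 (limma). Choosing the block on its values favours such low counts, which are no separate result. Together the 131 genes held 0.766%, 0.908% and 3.74% of the normalized counts in replicates 1, 2 and 3 at 24 h, against 3.94%, 0.968% and 1.84% at 0 h. The libraries of replicate 1 at 0 h and replicate 3 at 24 h were thus the high ones.

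Many genes of the block had nearly the same values. In 20 of them every library lay within 2% of 187, 207 and 803 normalized counts at 24 h (replicates 1, 2 and 3) and of 469, 212 and 436 at 0 h. Whether reads shared by near-identical copies were divided between them is not given in the sources used here. The block weighed on the agreement of abundant genes. Among the 954 genes above 10000 normalized counts, r between pairs 1 and 3 was -0.40 with its 44 members and 0.06 without them. Without the whole block limma called 1268 genes, 759 higher and 509 lower.

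**Figure D5:**
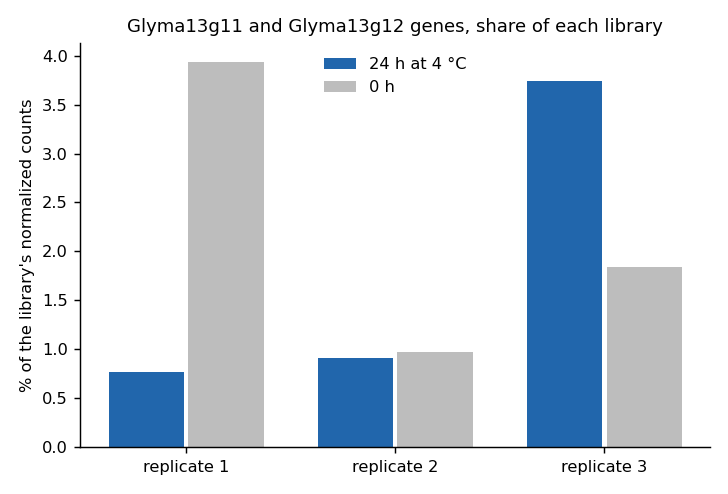
Bars give the percentage of each library's normalized counts held by the genes whose identifiers begin with Glyma13g11 or Glyma13g12, with 24 h at 4 °C to the left of 0 h in each replicate number. Replicate 1 is high at 0 h (3.94%), replicate 3 is high at 24 h (3.74%), and replicate 2 is near 1% at both times.

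A further 31 genes with a mean of at least 1000, none of them in the block, were at least 2-fold lower at 24 h in pair 1 and at least 2-fold higher in pair 2. All 31 were higher in pair 3 too. Limma called 0 of them, with 0 at an unadjusted p below 0.05, which the choice of opposite pair changes itself favours. Over all 38979 tested genes 3.03% were called, and 7407 had an unadjusted p below 0.05 (limma). The 31 genes held 0.041%, 0.931% and 0.770% of the normalized counts in replicates 1, 2 and 3 at 24 h, against 0.366%, 0.352% and 0.389% at 0 h. At 1 h they held 0.163%, 1.42% and 0.452%. This set was also chosen after its values were seen, and its shares are a description of these libraries.

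Some genes were listed at 0 in all 3 libraries of one group and above 0 in all 3 of the other. There were 74 genes above 0 at 24 h and listed at 0 at 0 h, and 14 listed at 0 at 24 h and above 0 at 0 h. Their levels were low, with a median over genes of 2.67 normalized counts at 24 h in the 74 and of 4.17 at 0 h in the 14, and none of them reached the mean of 10 needed for a test. Since 1 read was worth up to 4.14 normalized counts at 0 h and up to 1.66 at 24 h, these patterns rest on very few reads, and the part of depth in them was not tested.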

How the data were processed

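Leaf RNA was sequenced from TruSeq v2 libraries, per the labels' protocols. The authors deposited 1 score per gene and library, a normalized count rounded to whole numbers. Per the submitters' processing notes, the tools included cutadapt 1.2.1 and DESeq 1.12, whose use is not described. The aligner, counter, genome build and annotation are not given in the sources used here. Of 49777 identifiers, 0 matched the RefSeq table of 59048 soybean genes (assembly Glycine_max_v4.0). Low values lay on steps, 82.0% to 95.9% of those from 1 to 40 in the 6 libraries, with the rounding of each step as tolerance. Others lay midway between steps, so exact reads were not recovered and no count test was made. For the alternative thinned to one estimated depth, reads were approximated by dividing each value by the worth of 1 read and rounding.

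Scores were analysed as log2(score + 1), which understates the change of low genes, with limma 3.58.1 in R 4.3.3 (trend and robust moderation, replicate number as a block, two-sided, Benjamini-Hochberg over all tested genes). In data simulated from this fit, with fewer genes changed than were called here and changes of 2-fold and 4-fold, most known changes were recovered. The share of false calls exceeded the threshold of 0.05. Figures used Python 3.11.15 and matplotlib 3.10.9. An exact permutation test of 3 pairs cannot go below 0.25 and was not used. What same-numbered libraries have in common is not in the labels. The pairing was set by the replicate numbers in the titles, with earlier results of these data known. Across genes, deviations from the group mean correlated at 0.85, 0.77 and 0.94 within numbers 1, 2 and 3. They correlated at 0.58 and 0.51 between numbers 1 and 2, and at -0.84 to -0.71 between number 3 and the others. By these values the pairing is less distinct for numbers 1 and 2 than for number 3. The 3 deviations of a group cancel out for each gene, so the negative values follow in part from the centring. The same libraries entered the fit, so these correlations are no independent support for the pairing. Groups and numbers came from the titles. No library was a copy of another, since the lowest difference over 36 pairs of libraries was 2.24 times counting noise.

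Named genes are the 2 that rose and the 2 that fell with the largest value of their smallest pair change, among called genes whose groups did not overlap and whose higher group averaged at least 1000. Genes sharing reads with near-identical copies are uncertain. Gene lists and alternatives were chosen with earlier results of these data known. The lists by words in gene names and the cell type markers could not be applied, because no identifier had a name.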

Additional observations from a re-analysis of the deposited data

How the results depend on the processing

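All alternatives used limma. Without the replicate block 0 genes passed, higher or lower, in the fit of 6 libraries and in a fit of all 9 (351 and 551 genes at an unadjusted p under 0.05). With the block, 0 passed without trend and robust moderation, 702 genes (432 higher, 270 lower) without the robust prior alone, 1992 (1172 higher, 820 lower) with all 9 libraries in 1 fit, 754 (463 higher, 291 lower) after thinning to one estimated depth, and 106 (53 higher, 53 lower) with a 2-fold minimum, by construction. The cause of the others was not tested. Equal totals gave 1445 genes (639 higher, 806 lower), 1083 of them among the 1183. Leaving out a pair left 203 genes without replicate 1, 105 without replicate 2 and 3474 without replicate 3, with 115, 52 and 2006 higher and 88, 53 and 1468 lower. Leaving out 1 library equals leaving out its pair. Over 16 alternatives with the block the log2 change was 4.77 to 5.30 for Glyma14g37440, 1.36 to 1.65 for Glyma02g14910, -1.08 to -0.88 for Glyma03g36080 and -1.16 to -1.01 for Glyma10g31610. Each lost its call without trend and robust moderation (limma adjusted p = 0.29) and without the block (limma adjusted p = 1), and Glyma14g37440 also without replicate 2. The share of genes moving the same way in 3 pairs was 34.1% with no filter, 45.4% at a mean of at least 100, 42.2% with equal totals and 41.1% after quantile normalization. The mean correlation between pairs, 0.16 as reported, was 0.079 with no filter, 0.28 at a mean of at least 100 and 0.21 with a pseudocount of 5. Removing the Glyma13g11 and Glyma13g12 genes was chosen after the data were seen.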
